A study of Mus musculus with 24 samples.

Results

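The DUSP phosphatases, the Zfp36 family of mRNA decay factors and their companion early genes were followed as 10 genes, chosen by symbol from the 24454 genes of the count table. They are the MAP kinase phosphatase genes Dusp1, Dusp2, Dusp5 and Dusp6, the decay factor genes Zfp36, Zfp36l1 and Zfp36l2, the early response genes Ier2 and Ier5, and Btg2, which codes for an antiproliferative protein that binds a deadenylase. The genes were proposed with the difference between VF and KI stem cells already known, where Dusp1, Zfp36 and Ier5 stood out. Every value that rests on the VF or KI stem cell libraries is therefore given as a description, without a test. All 10 genes passed the filter on low counts in every fit.

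RNA came from 3 bone marrow populations of C57BL/6N mice, sorted 12 weeks after 5 days of tamoxifen. The LTHSC group holds the most immature blood stem cells, preMegE cells give rise to both megakaryocytes and erythroid cells, and MkP cells give rise to megakaryocytes, from which platelets are shed. The VF genotype is labelled Vav1.Cre V617F, a Jak2 change found in human myeloproliferative neoplasms, the E12 genotype Scl.Cre Exon12, and the KI genotype Scl.Cre mouse Jak2 knock-in. The 24 libraries formed 8 groups of 3, namely VF, E12 and KI LTHSC, VF and KI preMegE, and VF, E12 and KI MkP. No E12 preMegE group was analysed here. The series covers unmutated and mutant Jak2 strains, but no label names the unmutated group. KI is therefore the group that VF and E12 were set against, and it is not called wild type. Vav1.Cre and Scl.Cre are drivers of the recombinase, and the driver changes together with the VF genotype, so the driver and the allele cannot be told apart in any comparison of VF with E12 or KI. The labels do not say that replicates were separate animals, and p-values measure only the spread between these libraries, which may be technical.

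MAP kinases such as ERK, p38 and JNK carry growth, cytokine and stress signals, and JAK2, the kinase bound to several blood cytokine receptors, is one of the starting points of the ERK route. DUSP phosphatases remove the activating phosphates from these kinases, and their genes are themselves switched on by the same signals, which makes them feedback inhibitors. Proteins of the Zfp36 family bind AU-rich elements in messages of cytokines and early genes and bring in the deadenylase that starts their decay. Many genes of this kind are immediate-early genes, whose messages appear within minutes of a stimulus or of cell handling and are short-lived.

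Total counts were 10357597 to 29688389 per library, with 13237 to 16006 genes detected. Jak2, the targeted gene, was present in every library, at 85.9 to 105 CPM (counts relative to the scaled library size) in VF LTHSC, 18.2 to 56.0 in E12 LTHSC and 40.9 to 66.2 in KI LTHSC. It lay at 38.5 to 62.2 CPM in VF preMegE and 28.8 to 35.8 in KI preMegE, and at 69.3 to 90.3 in VF MkP, 51.4 to 62.5 in E12 MkP and 36.9 to 72.2 in KI MkP. The count does not show which allele was read. The 6 megakaryocyte markers did not follow every label, with sums of 3321 CPM in preMegE KI replicate 1 and 2839 CPM in MkP KI replicate 4. The 7 stem cell markers set LTHSC apart except in 1 library. They summed to 545 to 749 CPM in 8 LTHSC libraries and 129 CPM in LTHSC E12 replicate 4. That replicate also held 16070 CPM of Mpo, the neutrophil peroxidase. That library and 3 others, preMegE KI replicate 1 and MkP KI replicates 5 and 6, had a scaling factor under 0.8 within their population. The 3 KI libraries also held 14010, 18980 and 8857 CPM of Malat1, a nuclear RNA, against at most 4136 CPM in the other 21 libraries. The main results that rest on these 4 libraries are given with and without them, and the others only with all libraries.

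Promoter sequences were available for 8 of the 10 genes from RefSeq on GRCm38.p6. The 250 bases before the start site are shown for the genes on which the results turn: Dusp1, Zfp36 and Btg2, which lay lower in VF than in KI in both LTHSC and preMegE, Dusp5, which fell with Dusp1 and Zfp36 between E12 LTHSC and MkP, and Dusp6, which overlapped between VF and KI in every population. Capitals mark matches to 1 of 4 motifs on either strand.
Dusp1, chr17:26508473-26508722, minus strand: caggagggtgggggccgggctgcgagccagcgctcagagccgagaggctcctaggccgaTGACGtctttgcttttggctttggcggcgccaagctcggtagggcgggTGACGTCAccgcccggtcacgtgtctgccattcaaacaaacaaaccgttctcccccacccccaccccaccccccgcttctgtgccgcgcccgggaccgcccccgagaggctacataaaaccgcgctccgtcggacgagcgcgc
Zfp36, chr7:28379229-28379478, minus strand: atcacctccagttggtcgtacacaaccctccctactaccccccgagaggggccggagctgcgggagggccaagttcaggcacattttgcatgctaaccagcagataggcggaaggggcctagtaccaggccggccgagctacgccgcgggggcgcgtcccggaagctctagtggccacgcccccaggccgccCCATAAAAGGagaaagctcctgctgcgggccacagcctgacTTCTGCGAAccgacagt
Btg2, chr1:134079156-134079405, minus strand: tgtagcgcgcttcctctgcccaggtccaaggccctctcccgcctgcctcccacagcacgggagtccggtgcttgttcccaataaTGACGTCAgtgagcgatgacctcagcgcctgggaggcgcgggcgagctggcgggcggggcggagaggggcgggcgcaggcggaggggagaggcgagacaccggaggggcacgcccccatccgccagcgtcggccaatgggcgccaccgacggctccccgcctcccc
Dusp5, chr19:53528895-53529144, plus strand: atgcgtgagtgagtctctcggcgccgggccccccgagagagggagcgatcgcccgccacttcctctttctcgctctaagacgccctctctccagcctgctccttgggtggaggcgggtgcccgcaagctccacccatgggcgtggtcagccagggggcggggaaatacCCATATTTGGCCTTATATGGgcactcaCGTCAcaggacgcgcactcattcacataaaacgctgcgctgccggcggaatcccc
Dusp6, chr10:99262981-99263230, plus strand: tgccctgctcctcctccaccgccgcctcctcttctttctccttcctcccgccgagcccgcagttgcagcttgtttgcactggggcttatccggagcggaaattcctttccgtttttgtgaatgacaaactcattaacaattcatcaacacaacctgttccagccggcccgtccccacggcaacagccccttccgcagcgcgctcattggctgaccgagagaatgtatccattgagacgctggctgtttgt

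The motifs were the CRE half-site TGACG, bound by CREB family proteins, the CArG box, bound by serum response factor, the STAT motif TTCNNNGAA and the AP-1 motif TGANTCA, and windows ran from 250 bases before to 50 after the start. The CRE half-site was found in 4 of the 8 promoters (Dusp1, Dusp2, Dusp5 and Btg2), against 20.8% of all 32841 promoters of the table. In Dusp1 and in Btg2 a pair of half-sites on opposite strands overlapped, in Dusp1 starting 143 and 140 bases and in Btg2 166 and 163 bases before the start. The CArG box was found in 2 of 8, at 82 and 72 bases before the start of Dusp5 and 58 before that of Zfp36, against 1.63% of all promoters. The STAT motif was found only in Zfp36 among the 8, 17 bases before its start, against 8.30% of all promoters. The AP-1 motif was found only in Zfp36l1, whose promoter is not shown, against 7.81%. The windows of Dusp6 and Ier5 held none of the 4 motifs. A match describes the letters and not a bound site.

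In stem cells, Dusp1, which codes for a nuclear phosphatase of p38, JNK and ERK, had the widest range. Its level was 82.0, 57.4 and 78.7 CPM in the 3 VF libraries, 463, 296 and 71.9 CPM in the E12 libraries and 1658, 737 and 1216 CPM in the KI libraries. The KI libraries were the highest without overlap with either genotype, and E12 replicate 11 lay among the VF libraries. The log2 fold change was -4.08 for VF against KI and -2.12 for E12 against KI. Zfp36, the gene of tristetraprolin, the best-studied decay factor, had 49.2, 25.7 and 27.8 CPM in VF, 109.6, 77.5 and 54.1 in E12 and 424, 246 and 290.1 in KI LTHSC. Here the 3 genotypes did not overlap at all, with log2 fold changes of -3.26 for VF against KI, -2.0 for E12 against KI and -1.26 for VF against E12.

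The 3 early response and antiproliferative genes had the same order in LTHSC, with differing spread. Ier2, a nuclear early response protein gene, had 114 to 141 CPM in VF, 147 to 373 in E12 and 458 to 829 in KI. Ier5, whose protein binds the phosphatase PP2A, had 7.38 to 10.4 CPM in VF, 8.07 to 12.6 in E12 and 28.4 to 52.6 in KI, so that VF and E12 overlapped while KI stood apart from both. Btg2 had 18.6 to 39.3 CPM in VF, 29.8 to 68.8 in E12 and 76.5 to 307 in KI, the widest spread of the 3 groups.

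The other phosphatases differed less in LTHSC. Dusp2, a nuclear phosphatase known from activated lymphocytes, had 53.6, 46.9 and 49.1 CPM in VF and 62.7, 79.1 and 28.05 in E12, against 95.8, 89.8 and 91.5 in KI, which lay above both. Dusp5, a nuclear phosphatase of ERK, had 7.83 to 10.4 CPM in VF and 2.17 to 6.89 in E12, against 18.5 to 27.3 in KI, and was the 1 gene of the 10 that was higher in VF than in E12 without overlap. Dusp6, a cytoplasmic phosphatase of ERK, overlapped in all 3 pairs, with 40.2, 74.8 and 66.5 CPM in VF, 74.8, 24.9 and 54.3 in E12 and 98.9, 71.3 and 80.4 in KI. The lowest E12 value was that of replicate 4, the library with high Mpo.

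The 2 other decay factors went separate ways in LTHSC. Zfp36l1 had 34.8 to 38.8 CPM in VF, 54.0 to 77.0 in E12 and 60.04 to 97.6 in KI, with VF below both. Zfp36l2, which mice need for blood stem and progenitor cells, had 134.8, 177 and 130.4 CPM in VF, 146, 70.7 and 152 in E12 and 143, 121 and 125 in KI, with overlap in all pairs. Over the 10 genes, 8 were lower in VF than in KI without overlap (all but Dusp6 and Zfp36l2), where 13.5% of all tested genes were. Against KI, 7 of 10 were lower in E12 without overlap, where 7.65% of all genes were, and 0 were higher, where 8.49% were. Between VF and E12, 3 were lower and 1 higher in VF, where 9.72% and 11.5% of all genes were. The first of these contrasts chose the genes and the second shares its KI libraries, so nothing is read from these counts. Without E12 replicate 4 the E12 count was again 7, now of 2 against 3 libraries. The share of all genes was not taken for that setting, so nothing is read from this count either. Malat1 moved with the KI group in LTHSC, at 1274 to 1892 CPM in VF, 1586 to 2953 in E12 and 2994 to 4136 in KI, and the 9 neutrophil and monocyte markers summed to 704 to 810 CPM in VF, 1155 to 26860 in E12 and 983 to 2129 in KI. The 6 erythroid markers, of which 5, 6 and 5 averaged over 1 CPM, separated the 3 genotypes, with sums of 86.3 to 113.6 CPM in VF, 329.8 to 994.8 in E12 and 47.1 to 64.7 in KI. The 6 megakaryocyte markers, all over 1 CPM, summed to 1268 to 1587 CPM in VF, 395 to 1697 in E12 and 1023 to 1200 in KI, so that VF lay above KI. The 7 lymphoid markers, of which 2, 4 and 2 averaged over 1 CPM, summed to 43.5 to 49.4 CPM in VF, 61.95 to 172 in E12 and 63.4 to 72.1 in KI, with no count of Cd3e in VF or KI. Their part was not tested, and in bulk samples fewer cells of a type and less RNA per cell cannot be told apart.

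**Figure D1:**
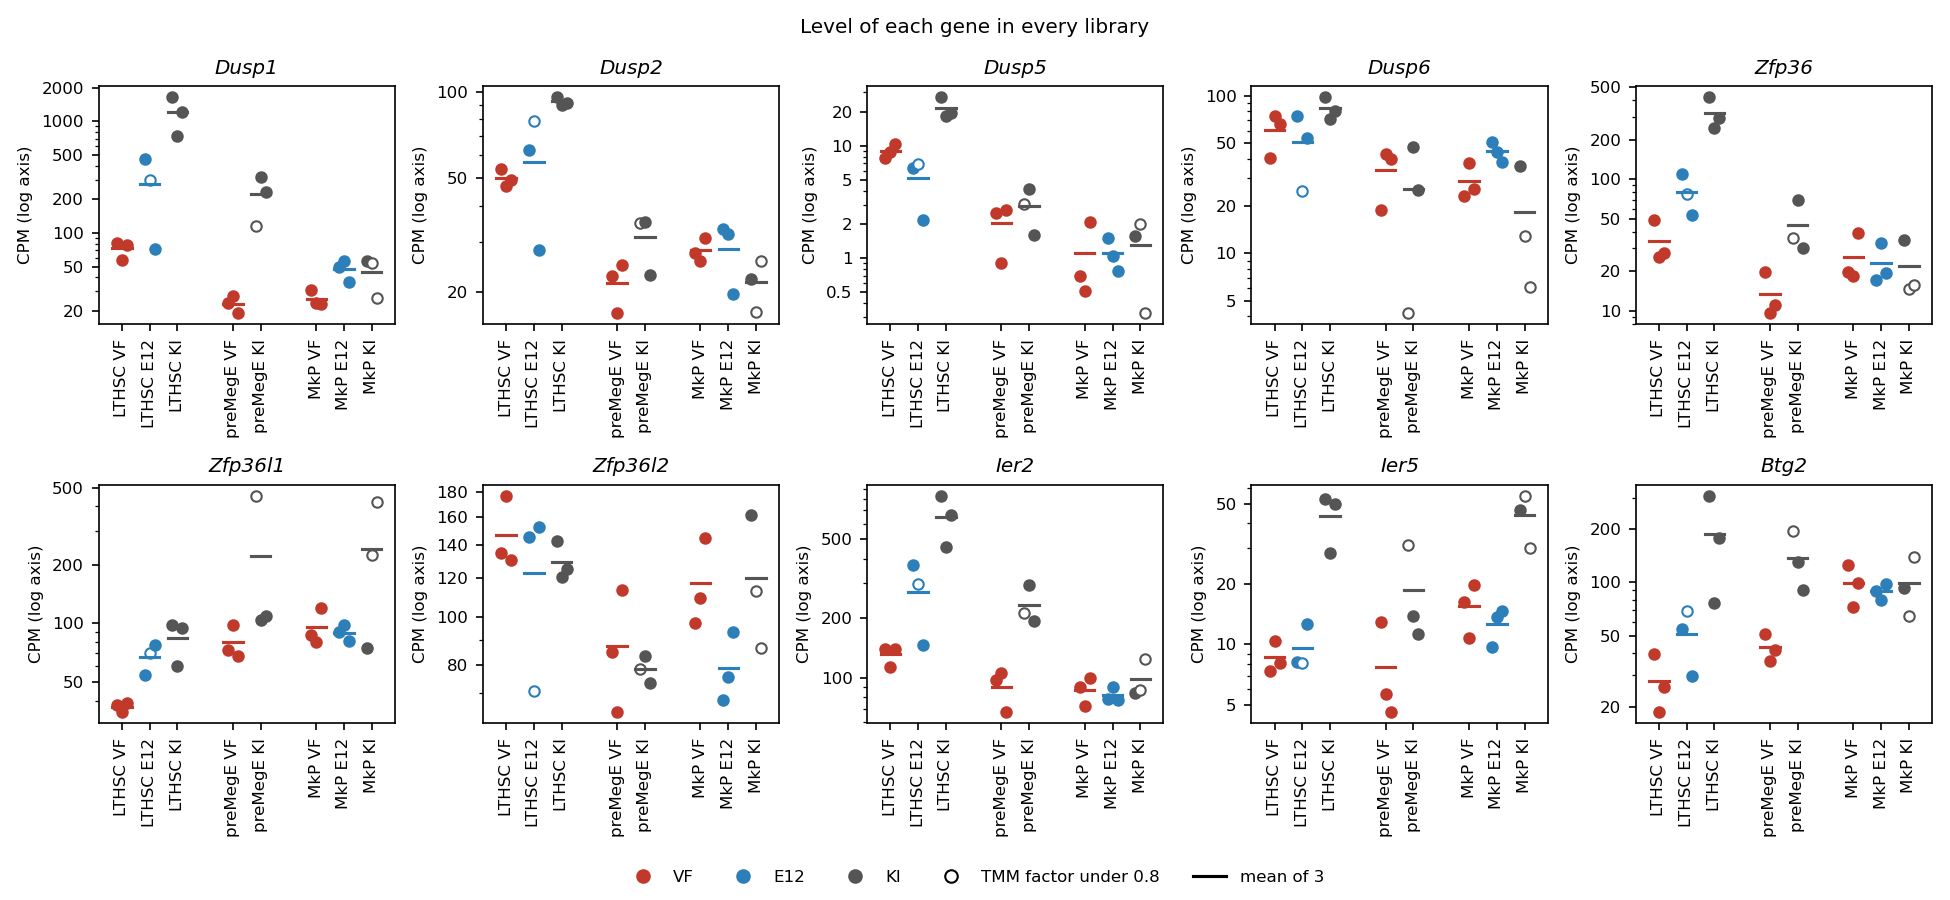
Level of each of the 10 genes in CPM on a log axis, 1 point per library and a bar for the mean of 3, by population and genotype (VF, E12, KI from left to right). Open points are the 4 libraries with a scaling factor under 0.8 within their population. Dusp1 lay at 737 to 1658 CPM in KI LTHSC and at 23.3 to 55.9 CPM in the MkP libraries, whereas Zfp36l2 kept between 64.0 and 177 CPM throughout.

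Levels of different genes were compared per kilobase of the deposited gene length. In KI LTHSC, Dusp1 was the most abundant of the 10, at 619.8 CPM per kb on average, ahead of Ier2 at 427, and their ranges overlapped. In VF LTHSC, Ier2 led with 86.5 CPM per kb, followed by Zfp36l2 with 41.7 and Dusp1 with 37.4. In E12 LTHSC, Ier2 and Dusp1 led with 179 and 142 CPM per kb. Ier2 was first in 6 of the 8 groups, and either Dusp5 or Ier5 was last in every group.

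The makeup of each family therefore differed between groups. Dusp1 held 38.2% ± 6.01 of the CPM per kb of the 4 phosphatases in VF LTHSC, 65.5% ± 14.7 in E12 LTHSC and 84.5% ± 4.29 in KI LTHSC (SD, n = 3 each). In preMegE its share was 30.9% ± 6.35 in VF and 77.5% ± 6.69 in KI, and in MkP it was 31.8% ± 5.22 in VF, 41.5% ± 2.66 in E12 and 51.6% ± 9.89 in KI (SD, n = 3 each). The VF share thus lay near the same value in all 3 populations, while the KI share was lower in MkP than in LTHSC and preMegE without overlap. Among the decay factors, Zfp36 held 26.2% ± 8.38 in VF, 44.0% ± 11.5 in E12 and 73.2% ± 3.03 in KI LTHSC (SD, n = 3 each). Zfp36l2 held most of the rest in VF LTHSC, with 56.8% ± 8.58, against 15.3% ± 2.39 in KI LTHSC (SD, n = 3 each). In preMegE the Zfp36 share was 12.9% ± 5.18 in VF and 24.6% ± 15.1 in KI (SD, n = 3 each), with overlap. Without preMegE KI replicate 1 the KI share was 31.7% ± 12.6 (SD, n = 2), without overlap. In MkP the Zfp36 share was 17.8% ± 3.30 in VF, 19.7% ± 5.07 in E12 and 11.4% ± 9.14 in KI (SD, n = 3 each), and the 3 ranges overlapped. In KI MkP replicate 4 alone, the library without a low scaling factor, it was 21.9%, and the Dusp1 share was 50.65%. Without preMegE KI replicate 1 the Dusp1 share in KI preMegE was 81.2% ± 2.39 (SD, n = 2).

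**Figure D2:**
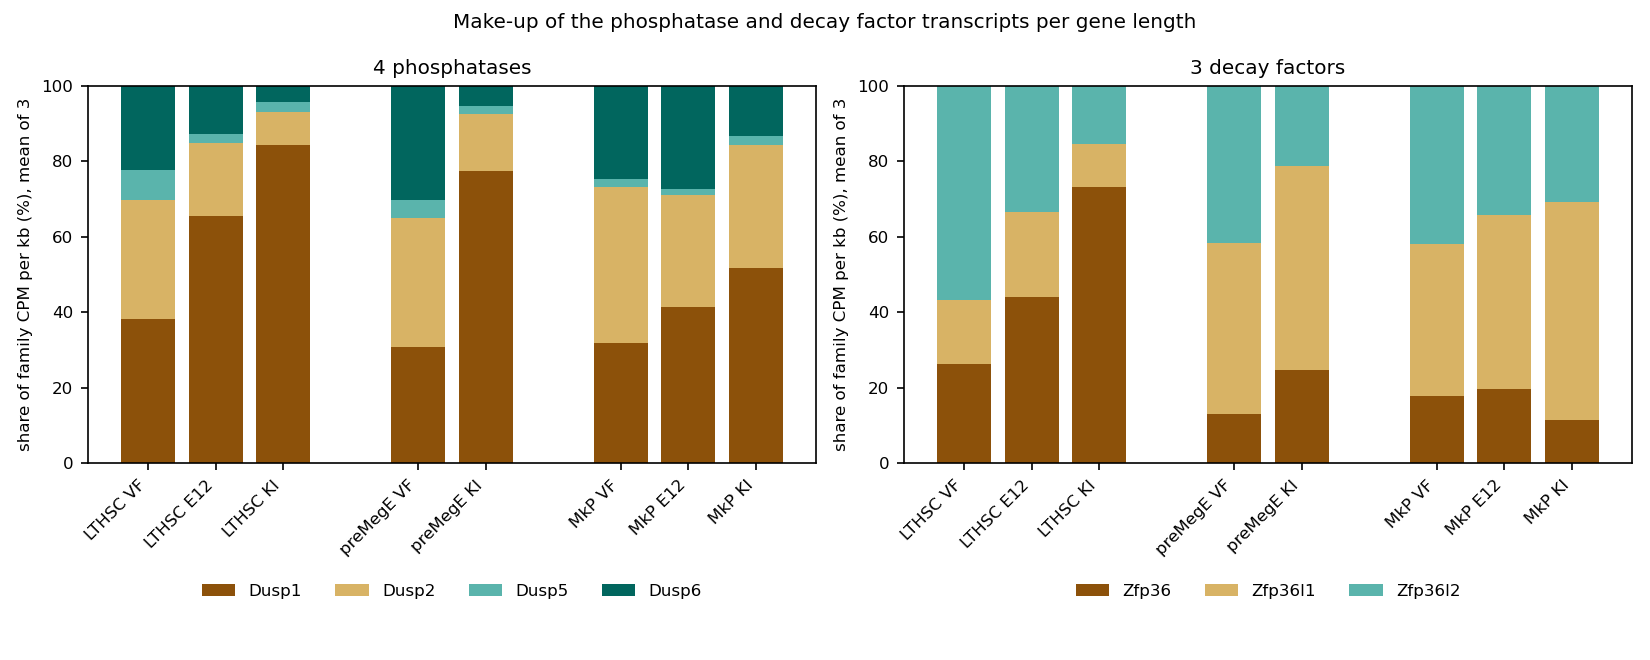
Mean share, in percent of the family's CPM per kb, of Dusp1, Dusp2, Dusp5 and Dusp6 among the 4 phosphatases (left) and of Zfp36, Zfp36l1 and Zfp36l2 among the 3 decay factors (right) in the 8 groups of 3 libraries. Dusp1 made up 30.9% to 38.2% of the phosphatase total in the VF groups and 77.5% to 84.5% in KI LTHSC and preMegE, and Zfp36l1 had the highest mean share of the decay factors in the preMegE and MkP groups other than VF MkP. In KI MkP this rests on replicates 5 and 6, since in replicate 4 Zfp36l1 held 27.5% and Zfp36l2 50.55%.

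The preMegE libraries are other than the LTHSC ones, but earlier results of these data were known when the genes were chosen. Here Dusp1 also had the largest difference of the 10 genes between VF and KI. It had 23.7, 27.0 and 19.1 CPM in VF and 116, 319 and 232 CPM in KI, with no overlap. The log2 fold change was -3.26 (SE 0.46), with an adjusted p of 0.109 by edgeR's quasi-likelihood test, which misses the threshold of 0.05. Without preMegE KI replicate 1, the library with a low scaling factor, it was -3.56 (SE 0.33) with an edgeR adjusted p of 2.356e-05. With that library kept, Dusp1 passed by DESeq2 (adjusted p = 7.69e-09). By edgeR it then passed with no filter (adjusted p = 0.0198), in 1 model of all 24 libraries (0.00914) and with a replicate block (0.0305). The call thus depends on that library and on the fit.

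Zfp36, Ier2, Btg2 and Zfp36l1 were also lower in all VF than in all KI preMegE libraries, but none passed. Zfp36 had 19.9, 9.63 and 11.1 CPM in VF and 36.1, 70.2 and 29.9 in KI (log2 fold change -1.75, SE 0.45, edgeR adjusted p = 0.642). Ier2 had 98.2, 107 and 67.4 CPM in VF and 212, 294 and 195 in KI (log2 fold change -1.37, SE 0.39, edgeR adjusted p = 0.642). Btg2 had 51.5, 36.1 and 41.6 CPM in VF and 193, 129.6 and 90.6 in KI (log2 fold change -1.70, SE 0.39, edgeR adjusted p = 0.548). For these 3 genes every KI library was higher, the highest being replicate 2 for Zfp36 and Ier2 and replicate 1 for Btg2. Without KI replicate 1 the log2 fold change was -1.89 (SE 0.41, edgeR adjusted p = 0.0652) for Zfp36. It was then -1.43 (SE 0.33, edgeR adjusted p = 0.0924) for Ier2 and -1.35 (SE 0.32, edgeR adjusted p = 0.113) for Btg2, so again none of the 3 passed. Without a scaling factor Zfp36 overlapped, with 19.5 CPM in KI replicate 1 and 19.7 CPM in VF replicate 1. Zfp36l1 had 72.7, 98.5 and 68.1 CPM in VF and 453, 103 and 109 in KI, where the high value was that of replicate 1 alone. Its log2 fold change was -1.49 (SE 0.61) with that library and -0.41 (SE 0.32) without it.

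The remaining genes overlapped in preMegE. Dusp6 had 18.8, 42.8 and 40.0 CPM in VF and 4.16, 47.7 and 25.2 in KI, again with replicate 1 of KI at the extreme. Dusp2 had 16.9 to 24.8 CPM in VF and 23.0 to 35.2 in KI, Ier5 4.61 to 12.96 in VF and 11.2 to 31.0 in KI, and Zfp36l2 64.0 to 113 in VF and 73.5 to 83.2 in KI. Dusp5 was low, at 0.915 to 2.701 CPM in VF and 1.597 to 4.11 in KI.

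In counts, 0 of the 10 genes passed edgeR's test in preMegE, where 0.0151% of 13231 tested genes did, and DESeq2 called 2, Dusp1 and Btg2, and 0.514% of all genes. At an unadjusted p under 0.05 there were 5 of 10, against 6.58% of all genes, and 5 of 10 were lower in VF without overlap, against 5.69%. Without KI replicate 1 again 5 were lower without overlap, against 11.9% of all genes. The median log2 fold change was -1.32 over the 10 genes and -0.03 over all tested genes. The 2 genes that passed over the whole table were Fosb, an AP-1 gene that is no member, and Echdc2, both lower in VF. Markers of other cells moved with this comparison. The 9 neutrophil and monocyte markers, all detected in both groups, summed to 8798 to 18780 CPM in VF and 2508 to 3873 in KI preMegE. Mpo was the largest of them, averaging 8243 CPM in VF and 1182 CPM in KI. S100a8, S100a9 and Lyz2 averaged lower in VF, and the rest of the 9 higher. Of the lymphoid markers, 6 of 7 averaged over 1 CPM in each group and their sum was 157 to 202 CPM in VF and 359 to 1812 CPM in KI. The part of these cells in the differences was not tested.

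In MkP, Ier5 had the largest log2 fold change of the 10 genes for VF and for E12 against KI. Ier5 had 16.2, 10.7 and 19.8 CPM in VF, 9.70, 13.7 and 14.6 in E12 and 46.4, 54.7 and 30.0 in KI MkP, with KI above both other genotypes. In CPM without a scaling factor VF and KI overlapped, with 20.8 in VF replicate 3 and 15.7 in KI replicate 6. The log2 fold change was -1.57 (SE 0.35, edgeR adjusted p = 0.0755) for VF against KI and -1.89 (SE 0.35, edgeR adjusted p = 0.0616) for E12 against KI, so neither passed. Without the 2 KI libraries of low scaling factor the E12 difference was -1.91 (SE 0.33, edgeR adjusted p = 0.0252) and the VF difference -1.59 (SE 0.34, edgeR adjusted p = 0.0797), with the single KI library left assumed to vary like the others. KI had similar Ier5 levels in MkP and LTHSC, 43.7 ± 12.5 and 43.6 ± 13.3 CPM (SD, n = 3 each), unlike Dusp1.

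Dusp1 had 30.6, 23.7 and 23.3 CPM in VF, 49.6, 55.8 and 36.4 in E12 and 55.9, 53.5 and 26.1 in KI MkP. VF lay below E12 without overlap (log2 fold change -0.85, SE 0.32, edgeR adjusted p = 1), and KI overlapped with both. Against KI the log2 fold change was -0.88 (SE 0.32, edgeR adjusted p = 0.117) for VF and -0.03 (SE 0.31, edgeR adjusted p = 0.957) for E12. Zfp36 had 18.3 to 39.3 CPM in VF, 17.2 to 32.7 in E12 and 14.8 to 34.9 in KI, with all 3 ranges overlapping. Ier2 likewise had 72.4 to 99.7 CPM in VF, 77.7 to 90.1 in E12 and 84.6 to 125 in KI, and Btg2 had 72.4 to 126, 80.0 to 97.6 and 64.2 to 139 CPM in these groups.

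Zfp36l1 and Dusp6 in MkP rested on 2 KI libraries. Zfp36l1 had 86.8, 79.8 and 119.7 CPM in VF, 90.2, 97.8 and 80.9 in E12 and 74.2, 224 and 422 in KI. Dusp6 had 23.2, 37.7 and 25.7 CPM in VF, 51.4, 43.8 and 38.1 in E12 and 36.2, 12.9 and 6.07 in KI. In both genes KI replicate 4 lay near the other genotypes, while replicates 5 and 6, with high Malat1, had high Zfp36l1 and low Dusp6. preMegE KI replicate 1, the third library of high Malat1, had 453 CPM of Zfp36l1, the highest of the 24, and 4.16 CPM of Dusp6, the lowest. Without replicates 5 and 6 the log2 fold change of Zfp36l1 moved to 0.34 for VF and 0.23 for E12 against KI, where it was -1.44 (SE 0.52, edgeR adjusted p = 0.118) and -1.55 (SE 0.52, edgeR adjusted p = 0.0922) with them. That of Dusp6 moved to -0.35 for VF and 0.26 for E12, where it was 0.58 (SE 0.51, edgeR adjusted p = 0.471) and 1.19 (SE 0.52, edgeR adjusted p = 0.162) with them. Without replicate 4 instead, both genes passed for VF and for E12 against KI, at edgeR adjusted p values of 0.000119 and 7.434e-05 for Zfp36l1 and 0.00387 and 0.000452 for Dusp6, and Ier5 passed too (0.00325 and 0.000932). These are 3 of 10 genes in each comparison, where 48.9% and 49.8% of all tested genes passed without replicate 4, and so are no result about the 10 genes.

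**Figure D3:**
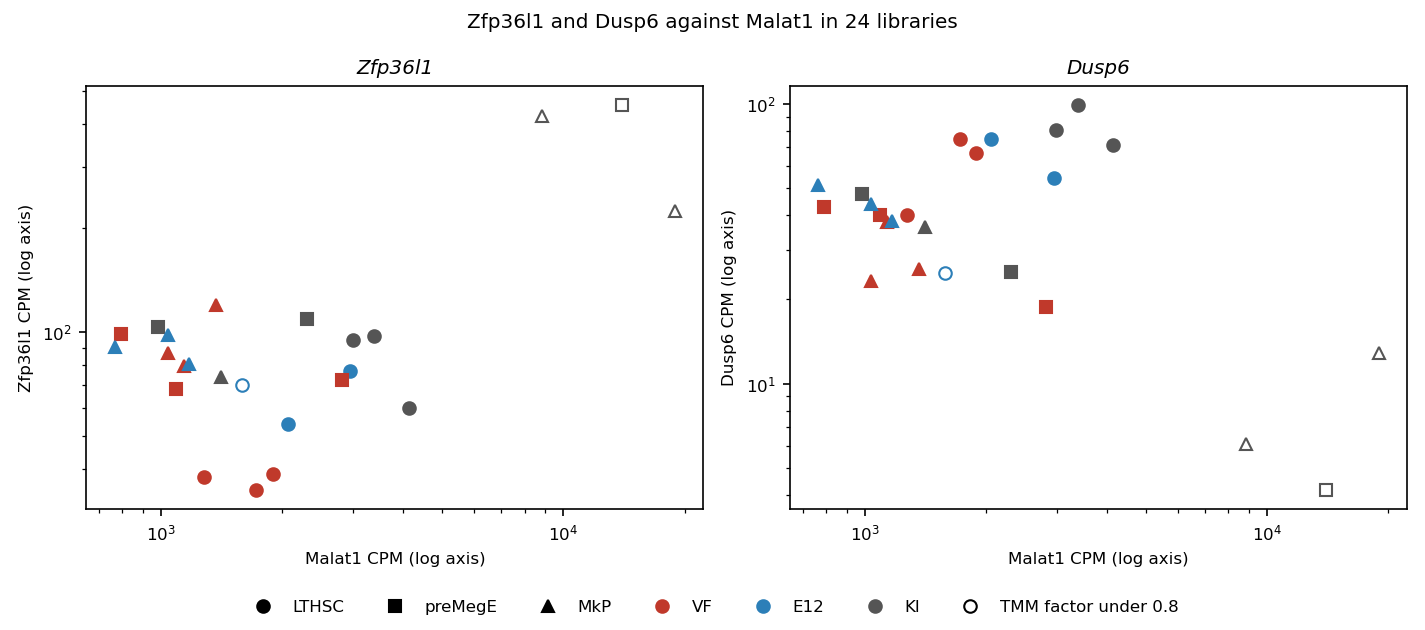
Zfp36l1 (left) and Dusp6 (right) against Malat1, all in CPM on log axes, 1 point per library over 24 libraries, with shape for the population, colour for the genotype and open points for a scaling factor under 0.8 within the population. The 3 KI libraries with 8857 to 18980 CPM of Malat1 hold the 3 highest Zfp36l1 levels, 224 to 453 CPM, and the 3 lowest Dusp6 levels, 4.16 to 12.9 CPM. The part of RNA quality or sorting in this was not tested.

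Zfp36l2 had 97.2 to 145 CPM in VF, 67.8 to 93.1 in E12 and 86.4 to 161 in KI MkP, with VF above E12 without overlap (log2 fold change 0.59, SE 0.28, edgeR adjusted p = 1). Dusp2 had 25.6 to 30.8 CPM in VF, 19.7 to 33.2 in E12 and 17.1 to 25.7 in KI, and Dusp5 was between 0.324 and 2.11 CPM in the 9 MkP libraries, with as few as 4 counts. In edgeR's test 0 of the 10 genes and 0% of 13435 genes passed in each of the 3 MkP comparisons. At an unadjusted p under 0.05 the members numbered 3 for VF against KI, 4 for E12 against KI and 1 for VF against E12, where 26.9%, 29% and 1.24% of all genes did. DESeq2 called 3, 2 and 0 of the 10, and 18.9%, 21.1% and 0.067% of all genes. Without overlap, 1 member was lower for VF against KI (6.97% of all genes) and 1, Ier5, for E12 against KI (7.4%), where Dusp6 was higher (16.2%), and 2 were lower and 1 higher for VF against E12 (8.19% and 6.59%). For VF and for E12 against KI, the shares at the unadjusted p and by DESeq2 lie near the background and are no result about the 10 genes. The neutrophil and monocyte markers, 9 of 9 detected in each group, summed to 3922 to 8409 CPM in VF, 1415 to 3382 in E12 and 2510 to 7085 in KI MkP. The mast cell and basophil markers, 5 of 5 detected in each group, moved with KI and with Ier5, at 26.97 to 95.5 CPM in VF, 59.3 to 127.5 in E12 and 243 to 648 in KI MkP, with KI above both. The erythroid markers, 6 of 6 detected in each group, summed to 214 to 474 CPM in VF, 436 to 798 in E12 and 223 to 289 in KI MkP. E12 lay above KI, and VF overlapped with both. Klf1 averaged lower in E12 than in KI, and the other erythroid markers higher. The stroma and endothelium markers summed to 65.0 to 83.2 CPM in VF, 59.1 to 91.6 in E12 and 17.7 to 59.9 in KI. Of these, 2 of 5 averaged over 1 CPM in each group, with no count of Cdh5 in any. Pecam1 held nearly all of this sum, averaging 74.3 CPM in VF, 77.1 in E12 and 31.5 in KI. Cxcl12 was also lowest in KI, whereas Lepr was highest there. The part of these markers was not tested.

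**Figure D4:**
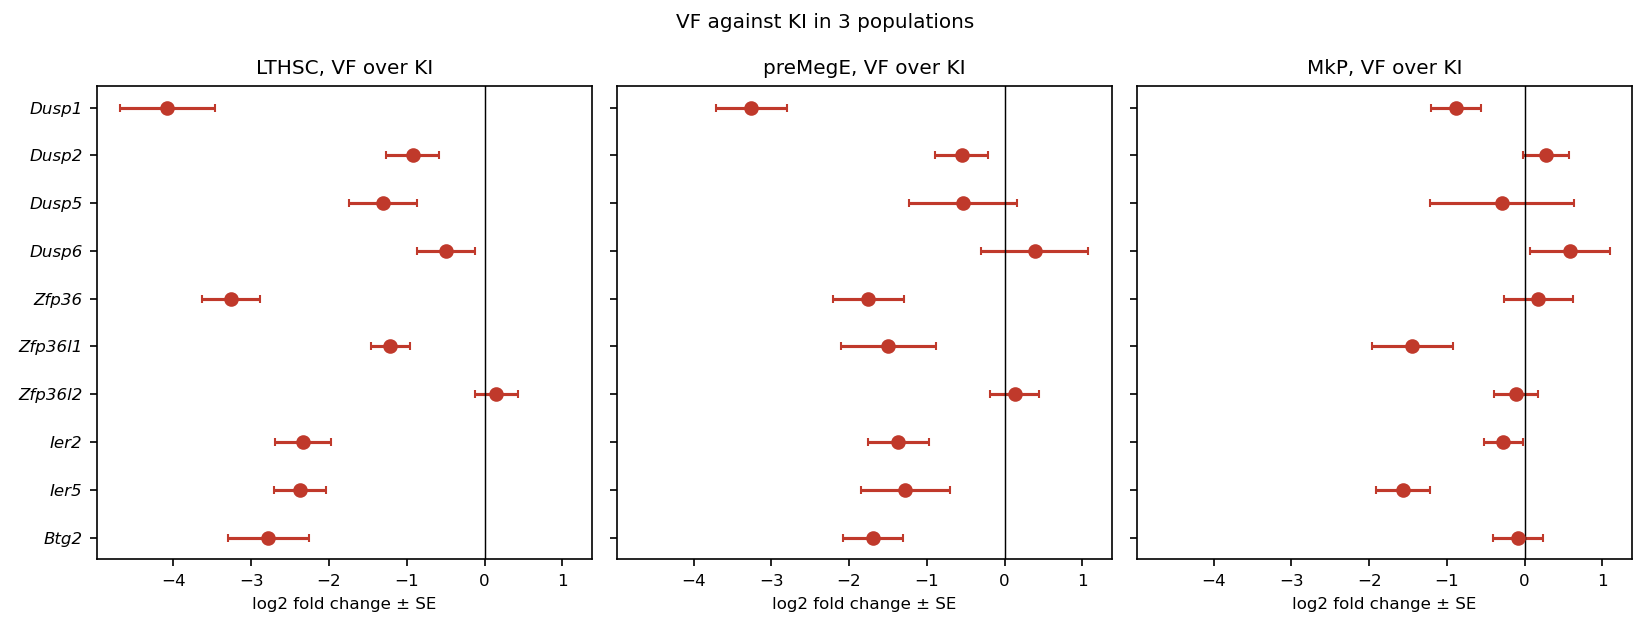
Log2 fold change of VF over KI for each of the 10 genes in LTHSC, preMegE and MkP, with bars for the SE of the edgeR fit over 3 and 3 libraries. Dusp1 was at -4.08 in LTHSC, -3.26 in preMegE and -0.88 in MkP, and Zfp36l2 was at 0.15, 0.13 and -0.11. The LTHSC panel is a description, since it chose the genes.

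The difference between these VF effects was tested directly for MkP against preMegE, and no gene passed. Dusp1 had the largest difference among the 10, with a log2 of 2.45 (SE 0.68, edgeR adjusted p = 0.934), and VF against KI fitted within each population gave -0.88 in MkP and -3.26 in preMegE. Zfp36 followed with 1.98 (SE 0.62), Btg2 with 1.69 (SE 0.60) and Ier2 with 1.18 (SE 0.45), all at an edgeR adjusted p of 0.934. Without the libraries of low scaling factor, which leaves 1 KI MkP library, the log2 differences were 2.40 for Dusp1, 1.40 for Zfp36, 1.40 for Btg2 and 1.42 for Ier2. In this test 0 of 10 members and 0% of 14965 genes passed by edgeR. DESeq2 called 0 members, and 16 of all genes. By edgeR 4 members had an unadjusted p under 0.05, against 4.67% of all genes.

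Across populations Dusp1, Zfp36 and Ier2 had their lowest KI levels in MkP and their highest in LTHSC, and the LTHSC values of KI and VF are again a description. Dusp1 averaged 1204 ± 460.4 CPM in LTHSC, 222 ± 102 in preMegE and 45.2 ± 16.6 in MkP of the KI genotype, and no 2 of these groups overlapped. Zfp36 averaged 319.8 ± 92.8, 45.4 ± 21.7 and 21.8 ± 11.4 CPM in the same 3 groups, with overlap between preMegE and MkP. Ier2 averaged 649.9 ± 186, 234 ± 53.0 and 99.0 ± 22.9 CPM, again without overlap (SD, n = 3 each).

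In the VF genotype the range of Dusp1, Zfp36 and Ier2 over the populations was narrower than in KI. Dusp1 averaged 72.7 ± 13.3 CPM in LTHSC, 23.3 ± 3.99 in preMegE and 25.9 ± 4.10 in MkP. Btg2 ran the other way in VF, with 27.8 ± 10.5 CPM in LTHSC, 43.1 ± 7.80 in preMegE and 99.2 ± 26.7 in MkP, whereas in KI it averaged 187 ± 115, 138 ± 51.9 and 98.6 ± 37.7 CPM. Zfp36l1 was likewise lowest in VF LTHSC, at 37.2 ± 2.07 CPM, with 79.8 ± 16.4 in VF preMegE and 95.4 ± 21.3 in VF MkP (SD, n = 3 each). Compared with LTHSC, 7 of 10 genes were lower without overlap in KI preMegE and 6 in VF preMegE, where 23.1% and 27.2% of all genes were. In MkP the counts were 6 in KI and 5 in VF, where 19.9% and 25.1% were, and 3 genes were higher in VF MkP, where 27.1% were.

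The E12 libraries had no part in choosing the genes by VF against KI, although earlier results of these data were known. There the drop between LTHSC and MkP was tested. Dusp1 fell to 49.6, 55.8 and 36.4 CPM in MkP, against 463, 296 and 71.9 CPM in LTHSC (log2 fold change -2.55, SE 0.50, edgeR adjusted p = 0.00255). Ier2 fell to 78.7, 90.1 and 77.7 CPM in MkP, against 373, 299.7 and 147 CPM in LTHSC (log2 fold change -1.73, SE 0.32, edgeR adjusted p = 0.00162). Zfp36 fell to 17.2, 32.7 and 19.4 CPM, against 109.6, 77.5 and 54.1 CPM in LTHSC (log2 fold change -1.80, SE 0.45, edgeR adjusted p = 0.0143). All 3 had no overlap, and in each the LTHSC libraries were far more spread than the MkP libraries.

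Dusp5 fell to 1.51, 1.05 and 0.772 CPM in E12 MkP, against 6.40, 6.89 and 2.17 CPM in E12 LTHSC (log2 fold change -2.21, SE 0.65, edgeR adjusted p = 0.0411), on 23 to 36 counts in each MkP library. Dusp2 missed the threshold (log2 fold change -1.0, SE 0.31, edgeR adjusted p = 0.0552), as did Btg2 (log2 fold change 0.80, SE 0.42, edgeR adjusted p = 0.298), Ier5, Dusp6, Zfp36l1 and Zfp36l2. In all, 4 of the 10 genes were lower in MkP at the threshold, where 4.79% of 14965 genes were, and 0 were higher, where 2.09% were (6.88% in either direction). At an unadjusted p under 0.05 there were 6, against 20.4%, and without overlap 4 were lower and 2 higher, against 12.7% and 14%. The median log2 fold change was -0.82 over the 10 genes and -0.03 over all. Without LTHSC E12 replicate 4 and the other libraries of low scaling factor the same 4 passed, at edgeR adjusted p values of 0.00103, 0.000507, 0.00597 and 0.0221 for Dusp1, Ier2, Zfp36 and Dusp5, and Zfp36l2 joined them (log2 fold change -0.99, SE 0.22, edgeR adjusted p = 0.00295). The Dusp5 call was lost without LTHSC replicate 2 or 4 or any of the 3 MkP libraries (edgeR adjusted p 0.0811 to 0.179), and the Zfp36 call without LTHSC replicate 2 or MkP replicate 2 or 5 (0.0599 to 0.0864). In a fit of only these 2 groups the Dusp1 call was lost at a similar size (log2 fold change -2.66, SE 0.62, edgeR adjusted p = 0.0572), as was that of Dusp5.

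Between preMegE and MkP the KI genotype had a further drop in 2 genes. Dusp1 fell to 55.9, 53.5 and 26.1 CPM in MkP, against 116, 319 and 232 CPM in preMegE (log2 fold change -2.30, SE 0.50, edgeR adjusted p = 0.0140), with no overlap. Ier2 fell to 84.6, 87.0 and 125 CPM in MkP, against 212, 294 and 195 CPM in preMegE (log2 fold change -1.24, SE 0.32, edgeR adjusted p = 0.0366). These were 2 of 10, both lower, where 1.86% of all genes were lower and 2.89% differed, and 1 gene, Zfp36l2, was higher in MkP without overlap, where 4.96% were. The lymphoid markers, of which 4 of 7 in MkP and 6 of 7 in preMegE averaged over 1 CPM, also differed here, with sums of 58.3 to 145.9 CPM in KI MkP and 359 to 1812 CPM in KI preMegE, and their part was not tested. Without the libraries of low scaling factor the values were -2.26 (SE 0.73, edgeR adjusted p = 0.0815) for Dusp1 and -1.49 (SE 0.45, edgeR adjusted p = 0.0639) for Ier2, so both calls were lost with a similar size, and Ier5 (1.93, edgeR adjusted p = 0.0381) and Zfp36l2 (1.08, edgeR adjusted p = 0.0363) passed instead, as higher in MkP. These values rest on 1 KI MkP library, replicate 4, which the fit assumes to vary like the libraries of the other groups. Leaving out 1 library ended the Dusp1 call without preMegE replicate 2 or MkP replicate 6 (edgeR adjusted p 0.0553 and 0.0739) and the Ier2 call without preMegE replicate 2 or 3 or MkP replicate 5 or 6 (edgeR adjusted p 0.0502 to 0.141). In the VF genotype 0 of 10 passed between preMegE and MkP by edgeR, where 1.02% of all genes did. DESeq2 also called 0 of the 10, and 520 of all genes. By edgeR 3 of the 10 had an unadjusted p under 0.05, against 10.2% of all genes. There Dusp1 had 23.3 to 30.6 CPM in MkP and 19.1 to 27.0 CPM in preMegE, and Btg2 had the largest change, with no overlap (log2 fold change 1.20, SE 0.43, edgeR adjusted p = 0.226).

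Other genes of the pathway were taken from further lists. Their results are given only with all libraries, those of low scaling factor included. Of 12 further MAP kinase phosphatases, Dusp3 rose in MkP against LTHSC in E12 (130 against 31.8 CPM, log2 fold change 2.04, SE 0.42, edgeR adjusted p = 0.00357). It also rose in MkP against preMegE in KI (134 against 41.8 CPM, edgeR adjusted p = 0.0284) and in VF (140.1 against 38.9 CPM, edgeR adjusted p = 0.0306). Each was 1 of 12, where 2.09%, 1.03% and 0.481% of all genes rose. Dusp3 codes for a phosphatase of ERK and JNK that is abundant in platelets, and in the E12 and KI comparisons it rose where Dusp1 fell. Dusp8, a phosphatase of JNK and p38, fell in MkP of KI, with no count in the 3 MkP libraries and 3.05 CPM on average in preMegE (edgeR adjusted p = 0.0273). In the 4 genotype comparisons tested 0 of these phosphatases passed by edgeR, and at most 3 of 10 had an unadjusted p under 0.05, in E12 against KI MkP, where 29% of all genes did.

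Of the ERK feedback and target genes, such as the Sprouty and Spred inhibitors, 1 of 10 tested passed in 1 comparison: Ccnd1, the cyclin D1 gene, rose in KI MkP (29.1 against 9.42 CPM in preMegE, edgeR adjusted p = 0.00799), where 1.03% of all genes rose. Of 26 genes of deadenylation and decay, 0 passed in any tested comparison by edgeR. The most with an unadjusted p under 0.05 were 9, in E12 against KI MkP, where 29% of all genes had one. Their median log2 fold change in E12 MkP against LTHSC was 0.26, against -0.03 over all genes.

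Of the other early genes, 6 of 23 fell in E12 MkP against LTHSC, where 4.79% of all genes fell, and 0 rose. They were Egr1 (30.9 against 209.7 CPM), Fos (26.6 against 458), Junb (53.1 against 161), Ier3 (7.83 against 34.2), Klf6 (59.1 against 111) and Klf2 (0.182 against 3.42), of which the first 3 and the Klf genes code for transcription factors. In KI MkP against preMegE, 3 of 23 fell, where 1.86% of all genes did: Ppp1r15a, which restores translation after stress (53.8 against 233 CPM, edgeR adjusted p = 0.00298), Fos (29.8 against 393, edgeR adjusted p = 0.0213) and Egr1 (62.0 against 189, edgeR adjusted p = 0.0434). In VF against KI preMegE, 1 of 18 passed, Fosb, at 1.63 CPM in VF and 59.2 CPM in KI (log2 fold change -5.20, SE 0.59, edgeR adjusted p = 0.0427). The list's median there was -1.53, against -0.03 over all genes, and 12 of 18 had an unadjusted p under 0.05, where 6.58% of all genes did.

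Messages known to be bound by Zfp36 through AU-rich elements did not all go one way. In E12 MkP against LTHSC, 5 of 17 fell, where 4.79% of all genes did: Notch1, a receptor gene (9.18 against 63.3 CPM, edgeR adjusted p = 0.000109), the chemokine gene Ccl3 (0.484 against 18.9), Nfkbiz (2.43 against 20.5), Ier3, and Cxcl2, with no count in the 3 MkP libraries and 0.750 CPM in LTHSC. Il1b, the interleukin gene, rose there (23.9 against 0.998 CPM, edgeR adjusted p = 0.0067). In KI MkP against preMegE, Ccl3 fell (1.08 against 10.02 CPM, edgeR adjusted p = 0.0408) and Ccnd1 rose, as above. In the 4 genotype comparisons tested 0 passed by edgeR, and the most with an unadjusted p under 0.05 were 6 of 14 in preMegE, where 6.58% of all genes had one, and 6 of 15 for E12 against KI in MkP, where 29% had one. The median log2 fold change of the list was -0.64 for VF against KI in preMegE, against -0.03 over all genes. Several of these genes are also made by neutrophils and monocytes, whose markers are given above.

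The genes whose pattern lay closest to Dusp1 were found by the root mean square difference of centred log2 CPM over 24 libraries, among 7975 genes. They were Egr1 (0.58), Ppp1r15a (0.86), Junb (0.91), Jun (1.03) and Fos (1.03), where the median gene differed by 2.00. Egr1 averaged 48.7 CPM in VF, 209.7 in E12 and 1969 in KI LTHSC, and 31.1, 30.9 and 62.0 CPM in VF, E12 and KI MkP. Within the 10, Zfp36 was closest to Dusp1 (0.80), then Ier2 (0.94), and Zfp36l1 was farthest (2.15). The genes closest to Dusp6 were Plekha2 (0.42), Ssh3 (0.44), Aldh3a2 (0.46), Fam120b (0.47) and Cmtm6 (0.47), where the median gene differed by 1.14. Plekha2 and Ssh3 shared the low values of Dusp6 in the KI libraries of high Malat1, with group minima of 15.5 and 2.65 CPM in KI preMegE and 24.1 and 4.61 CPM in KI MkP.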

How the data were processed

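RNA of the 24 libraries was extracted with PicoPure and prepared with Smart-seq2, per the labels' protocols. The authors deposited raw counts per Entrez gene with the gene length in bases, another value that was used only for levels per kilobase. The submitters' processing notes list mm10 as the build and name STAR 2.7.0c and Subread 1.6.4 with featureCounts, while the annotation and strand setting are not given in the sources used here. The table calls 6 columns MEP, and genotype and replicate number tied each to 1 preMegE library. Rows without a symbol (16, at most 0.0132% of a library) were left out, and 0 value columns stayed unmapped. The counts of all 24 pairs of replicates differed beyond sampling noise (chi-square over degrees of freedom at least 20.7). Reads carry no molecular identifiers.

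Levels are CPM with TMM factors over all 24 libraries. Fold changes come from edgeR 4.0.16 in R 4.3.3 (2-sided quasi-likelihood F test, robust, after filterByExpr and TMM) with Benjamini-Hochberg adjustment over all genes tested and a threshold of 0.05. Genotypes were fitted within a population with its own TMM factors, and populations and the difference of differences over all 24 libraries. The SE is the size of the log2 fold change divided by the square root of F. Alternatives were DESeq2 1.42.0, RLE scaling, no scaling, no filter, other libraries in the fit, a replicate block and libraries left out. The code was tested on simulated data.

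The 10 genes, the gene lists and the tests were chosen with earlier results of these data known. The genes named are the 10 genes, up to 5 per list, comparison and direction with an adjusted p under 0.05, the 5 closest to Dusp1 and to Dusp6 with a mean log2 CPM of at least 4 (prior count 2), Jak2 and Malat1. Fosb and Echdc2 are also named as the whole of a count of 2. Single markers are named where a marker sum is described. The result of 1 further gene list is not reported here.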

Additional observations from a re-analysis of the deposited data

Results flagged for a closer look

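Some fold changes pointed opposite ways in different populations, which is why they are listed here. For VF against KI, the log2 fold change of Dusp2 was -0.93 in LTHSC and -0.55 in preMegE, and 0.28 in MkP. The difference between MkP and preMegE was 0.89 (SE 0.44, edgeR adjusted p = 0.934), and that with LTHSC was not tested. For Dusp6, VF against KI gave -0.50 in LTHSC, 0.39 in preMegE and 0.58 in MkP, and E12 against KI gave -0.73 in LTHSC and 1.19 in MkP. Without the libraries of low scaling factor, Dusp6 for VF against KI was at -0.11 in preMegE and -0.35 in MkP. These differences of Dusp6 with LTHSC were not tested. No group was large enough for a check of single outlying libraries.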

How the results depend on the processing

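Among the fold changes of the 10 genes in the 8 tested comparisons, 0 of those called changed sign in an alternative, while some that were not called did, such as Zfp36l1 and Dusp6 in MkP. The number of the 10 genes called in preMegE VF against KI was 0, against 1 with no filter, without the 4 libraries of low scaling factor, in 1 model of all 24 libraries and with the replicate block, and 2 by DESeq2. All genes called there numbered 2, against 0 with RLE scaling, 9 with no filter, 68 by DESeq2, 32 without the 4 libraries, 4 in the model of all 24 and 10 with the block. VF and KI libraries of the same replicate number in preMegE had correlations of 0.292, 0.072 and 0.225 in their deviations from the group means. Whether replicate numbers pair the samples was not tested. The block moved Dusp1 there to -3.18 (adjusted p = 0.0305). In MkP, VF against KI had 0 members, against 3 by DESeq2 and 1 in the model of all 24, and 0 genes, against 2539, 984 and, without the 4 libraries, 60. E12 against KI had 0 members, against 2 by DESeq2 and 1 with no filter, without the 4 libraries and in the model of all 24. Its genes numbered 0, against 1041 with no filter, 2834 by DESeq2, 99 without the 4, 1302 in the model of all 24 and 9 with the block. VF against E12 had 0 genes, against 9 by DESeq2, 11 without the 4 and 2 in the model of all 24. In E12 MkP against LTHSC, 4 members became 2 with no scaling (Dusp5 and Zfp36 lost) or with only the groups compared (Dusp1 and Dusp5 lost). With no scaling the number of all genes called there moved by at most 1.5 times. The block there ended the Zfp36 call (adjusted p = 0.0678) and added Dusp2 (-1.17, adjusted p = 0.0321), and 1030 genes became 1738 by DESeq2, 3257 without the 4, and 548 both with only the groups compared and with the block. In KI MkP against preMegE, 2 members became 1 with no filter and 0 with only the groups compared, and 433 genes became 210 with no scaling, 1104 by DESeq2, 699 without the 4 and 13 with only the groups compared. With no filter the 433 moved by at most 1.5 times. In VF MkP against preMegE, 0 members became 1 with only the groups compared (Btg2), and 152 genes became 36 with no scaling, 520 by DESeq2, 1384 without the 4 and 867 with only the groups compared. The difference of differences had 0 genes, against 16 by DESeq2. Leaving out 1 library gave members and genes called of 0 to 1 and 0 to 32 in preMegE, and in MkP against KI 0 to 3 and 0 to 6732 for VF and 0 to 3 and 0 to 6856 for E12 (both highest without MkP KI replicate 4). It gave 0 and 0 for VF against E12, 2 to 5 and 527 to 1265 for E12 MkP against LTHSC, 0 to 3 and 167 to 2321 for KI and 0 and 4 to 122 for VF MkP against preMegE, and 0 and 0 to 78 for the difference. Members lower without overlap moved by over 1.5 times only in MkP: 1 for VF against KI became 0 with no scaling (3.45% of all genes) and 3 without the 4 (27.7%), 1 for E12 against KI became 2 with RLE scaling (9.16%) and 5 without the 4 (25.7%), and 2 for VF against E12 became 1 with no scaling (8.2%). Without the 4, MkP KI holds 1 library. In preMegE 5 members were lower without overlap, and 4 with no scaling (3.34% of all genes), where Zfp36 overlapped. With no scaling the median of all genes shifted by 0.53 (VF) and 0.55 (E12) against KI in MkP and by 0.21 in preMegE, all log2. The cause was not tested. Depth limits Dusp5, which had as few as 4 counts in MkP.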
